A study of Mus musculus with 12 samples.

Results

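The tumor fraction of mouse F4 tumors was set against the microenvironment fraction of the same tumors, on 4 arrays for each fraction, which are 8 of the 12 arrays of the series. The arrays were chosen by their labels alone: every sample labelled as F4 was taken, and all genes with a named and detected probe were measured. F4 is a line of B16, a pigmented mouse melanoma, and the labels describe its tumors as having acquired resistance to earlier checkpoint inhibitor (CI) therapy and as under CI treatment at harvest. Per the treatment protocol the mice received 3 CI injections together with Fvax, a vaccine of B16 cells that express Flt3 ligand, so both fractions carry the same treatment. The tumor fraction is the tdTomato-positive cells and the microenvironment fraction the tdTomato-negative cells that flow cytometry separated from enzymatically digested tumors of 100 to 400 mm3, grown under the skin from 25000 cells. Each of the pools A, B, C and D combined the tumors of 3 mice and gave 1 array of either fraction, so the fractions are matched by pool. The remaining 4 arrays come from F0 tumors, with 2 arrays (B2 and B3) for each fraction. A tag calls the F0 samples free of any CI treatment while the protocol gives them the same injections. The F0 arrays entered the normalization, the detection filter and the choice of probe for all 12 arrays. They also entered the estimate of the spread and 1 comparison of the fraction difference between lines. Each fraction filled a chip of its own, and an effect of the chip cannot be told apart from one of the fraction.

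B16 cells derive from melanocytes, which build melanin in melanosomes with the enzymes tyrosinase, Tyrp1 and Dct on a scaffold of Pmel, under the control of the transcription factor Mitf. The tissue around a growing melanoma holds macrophages, neutrophils, dendritic cells, T, NK and B cells, fibroblasts, vessel cells and blood. T cells recognise tumor peptides on MHC class I molecules and kill with perforin and granzymes, and interferon gamma released by them raises MHC and PD-L1 through the receptor chains Ifngr1 and Ifngr2 and the kinases Jak1 and Jak2. CI therapy blocks brakes on these T cells such as Ctla4.

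Promoter sequence from RefSeq (GRCm38.p6) is shown for 3 melanin enzyme genes and 3 leukocyte genes, to put letters beside the expression of the cells that carry these programs. The genes were picked after their values were seen. Capitals mark the motif TCATGTG or its reverse complement, the M-box recognised by Mitf, with up to 40 bases on either side and none from the annotated gene start onward. The Tyr and Tyrp1 stretches end 1 base before the start, at -1, and the Dct stretch ends at -105. The Tyr stretch is chr7:87493513-87493574 on the minus strand, the Tyrp1 stretch chr4:80834126-80834212 on the plus strand and the Dct stretch chr14:118052351-118052496 on the minus strand.
Tyr: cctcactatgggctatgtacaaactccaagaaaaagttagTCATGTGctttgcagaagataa
Tyrp1: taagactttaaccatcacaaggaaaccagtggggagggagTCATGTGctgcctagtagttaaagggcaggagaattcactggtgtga
Dct: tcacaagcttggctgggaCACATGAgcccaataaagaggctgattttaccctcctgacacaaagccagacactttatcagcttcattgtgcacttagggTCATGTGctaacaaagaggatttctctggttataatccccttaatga

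The M-box letters were searched on both strands of the 250 bases before each start. Among 11 measured genes of pigment synthesis and the melanosome with a promoter in the table, 5 held them (Dct, Mc1r, Tspan10, Tyr and Tyrp1), against 3.72% of all 27025 genes in the table. The next 3 stretches mark GAGGAAGT or its reverse complement, letters recognised by PU.1, a transcription factor of myeloid and B cells. Vav1 encodes a signalling protein of blood cells (chr17:57279049-57279099, plus strand), S100a8 a subunit of the neutrophil protein calprotectin (chr3:90668859-90668946, plus strand) and Ly6c1 a surface protein of monocytes, T cells and vessels (chr15:75048743-75048830, minus strand).
Vav1: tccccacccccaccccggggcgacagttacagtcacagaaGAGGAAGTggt
S100a8: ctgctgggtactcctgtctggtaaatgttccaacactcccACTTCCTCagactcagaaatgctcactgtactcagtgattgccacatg
Ly6c1: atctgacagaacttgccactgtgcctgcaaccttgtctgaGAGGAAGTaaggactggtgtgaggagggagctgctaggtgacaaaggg

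GAGGAAGT stood in 3 of 13 pan-leukocyte genes with a promoter in the table (Cd37, Inpp5d and Vav1). It stood in 1 of 9 neutrophil, 2 of 13 macrophage and monocyte and 1 of 10 T cell genes (Cd5). Among all genes in the table the share was 2.79%. These matches describe letters in the window and are no evidence of binding.

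The microenvironment fraction carried genes of T cells, neutrophils and B cells, and some of red cells, at levels above the tumor fraction. The largest difference was 37.1-fold, for the neutrophil gene S100a9, while B cell genes were dim in both fractions. The tumor fraction was higher, by smaller amounts, in some genes of mitochondria, glycolysis and DNA replication. Of 7894 genes tested, 1053 (13.3%) were higher and 886 (11.2%) lower in the tumor fraction at an adjusted p below 0.05 in limma. The median difference, tumor minus microenvironment on the log2 scale, was 1.06 among the higher and -1.60 among the lower genes. A difference beyond 4-fold was reached by 23 higher and 329 lower genes. All 4 tumor arrays lay above all 4 microenvironment arrays for 1113 genes (14.1%) and below them for 707 (8.96%). The plot of all genes shows this lopsided shape.

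**Figure D1:**
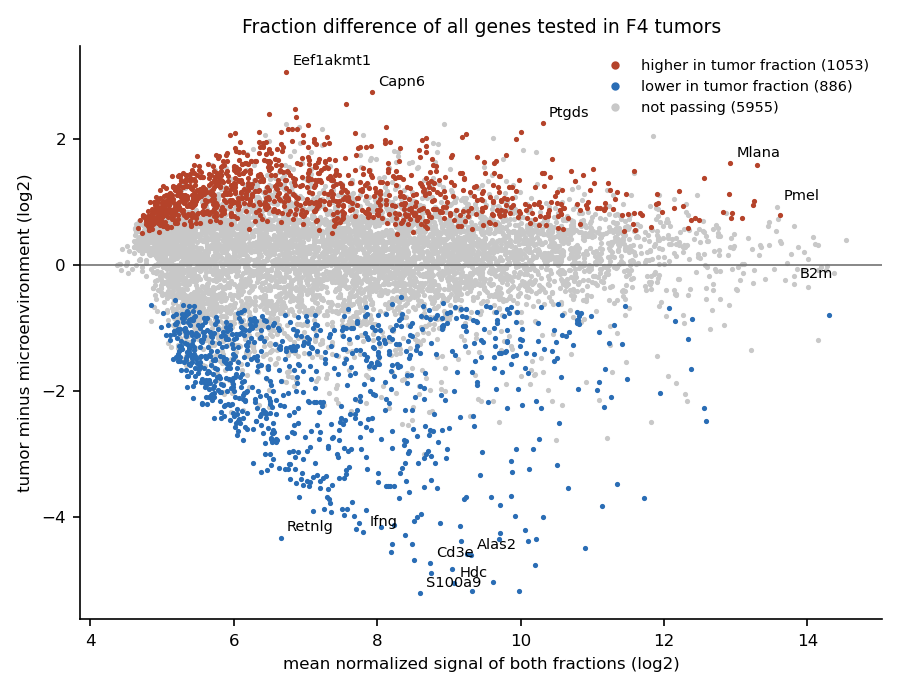
Difference between tumor and microenvironment fraction in F4 tumors (log2, vertical) against the mean log2 signal of both fractions (horizontal), 1 point for each of 7894 genes, coloured by whether the gene passed at an adjusted p below 0.05 in limma. The 886 lower genes reach -5.22 (S100a9), while the 1053 higher genes reach 3.07 (Eef1akmt1).

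Both the number of calls and the balance of directions depended on single arrays and on scaling. Without tumor array A 1773 genes were higher and 1209 lower. Leaving out another tumor array left 33 and 53 (B), 34 and 51 (C) or 31 and 60 (D), higher and lower in that order. Leaving out a microenvironment array gave 411 and 408 (A), 211 and 341 (B), 88 and 145 (C) or 1960 and 1310 (D). In all 8 of these fits 26 higher and 50 lower genes passed, among them S100a8, S100a9, Hdc, Retnlg, Lcn2, Tnfrsf4, Icos, Fcrla, Klrk1, Mzb1 and Jak2 on the lower side and Sh3tc2 on the higher side. When arrays were scaled to a common median instead of quantile-normalized, 93.1% of the calls were higher, against 54.3% as reported, and the median difference of all genes was 1.22, against 0.20. A level below is therefore to be read against the median of all genes, 0.20. As reported, 40.2% of all genes tested had a difference below 0, a share to set beside any count above 0. A count of genes that rose or fell in a list is to be set beside the 13.3% higher and 11.2% lower of all genes. A count from another fit belongs beside the number of all genes called in that fit. With the pool as a block 1483 of all genes were higher and 1133 lower.

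Tumor array A and microenvironment array D stood apart from their groups. On the first principal component, which held 71.1% of the variance, tumor array A lay at -6.15 and the other tumor arrays at 52.4 to 73.8. Microenvironment array D lay at -0.54 and the other microenvironment arrays at -75.6 to -48.2. The correlation of these 2 arrays with each other, 0.957 over all genes tested, was above that of either with any array of its own fraction. Without both, 2527 genes were higher and 1571 lower. A tumor array detected 8995 to 10308 probes and a microenvironment array 6808 to 9387.

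The label of the tumor fraction was checked with 17 measured genes of pigment synthesis and the melanosome, all of which had a difference above 0, with a median of 1.33. Of these 3 passed the test, Mlana, Bace2 and Mlph, a share of 17.6% that lies near the 13.3% of all genes, and 0 fell. Mlana, a melanosomal antigen seen by T cells, had a log2 signal of 12.99, 13.96, 13.88 and 14.11 in the tumor fraction of pools A to D, against 11.79, 12.22, 10.90 and 13.57 in the microenvironment fraction. The groups overlapped through tumor array A and microenvironment array D. Its difference was 1.62 ± 0.53 (SE), with an adjusted p of 0.0468. Bace2, a protease that cuts Pmel in the melanosome, was 4.10-fold higher, at 10.20 ± 0.67 against 8.16 ± 1.42 (SD, n = 4 each; adjusted p 0.0473). Mlph, the adaptor that links melanosomes to their motor, had 7.67, 7.33, 7.37 and 7.21 in the tumor fraction, against 4.64, 5.69, 5.37 and 6.66 in the microenvironment fraction. Here the groups did not overlap, and the difference was 1.80 ± 0.35 (SE; adjusted p 0.0142).

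The melanin enzymes and the scaffold protein did not pass, and all but Tyr were bright in both fractions. Dct had 13.73, 13.99, 13.79 and 13.55 in the tumor fraction, against 13.15, 13.21, 12.07 and 14.16 in the microenvironment fraction, where array D was the highest of the 8. Pmel had 13.77, 14.35, 14.25 and 13.80 in the tumor fraction, against 13.23, 13.10, 12.14 and 14.02 in the microenvironment fraction. Tyrp1 had 11.12, 11.47, 11.41 and 11.70 in the tumor fraction, against 10.10, 10.16, 8.60 and 11.50 in the microenvironment fraction. In each of these 3 genes microenvironment array C was the lowest and array D the highest of its fraction. Tyr, the enzyme of the first step of melanin synthesis, had 5.03, 7.03, 7.15 and 7.44 in the tumor fraction, against 4.60, 4.96, 4.52 and 6.42 in the microenvironment fraction, and tumor array A was the only low array of its group. The differences were 0.62 ± 0.39 for Dct (adjusted p 0.224), 0.92 ± 0.37 for Pmel (0.0802), 1.33 ± 0.52 for Tyrp1 (0.0740) and 1.54 ± 0.60 for Tyr (0.0747), each with its SE. With the pool as a block the adjusted p was 0.0465 for Tyrp1 and 0.0228 for Tyr, and 10 of the 17 genes of the list passed. Without tumor array A and microenvironment array D 13 passed, in a fit where 2527 of all 7894 genes were higher. Leaving out single arrays gave between 0 and 13.

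**Figure D2:**
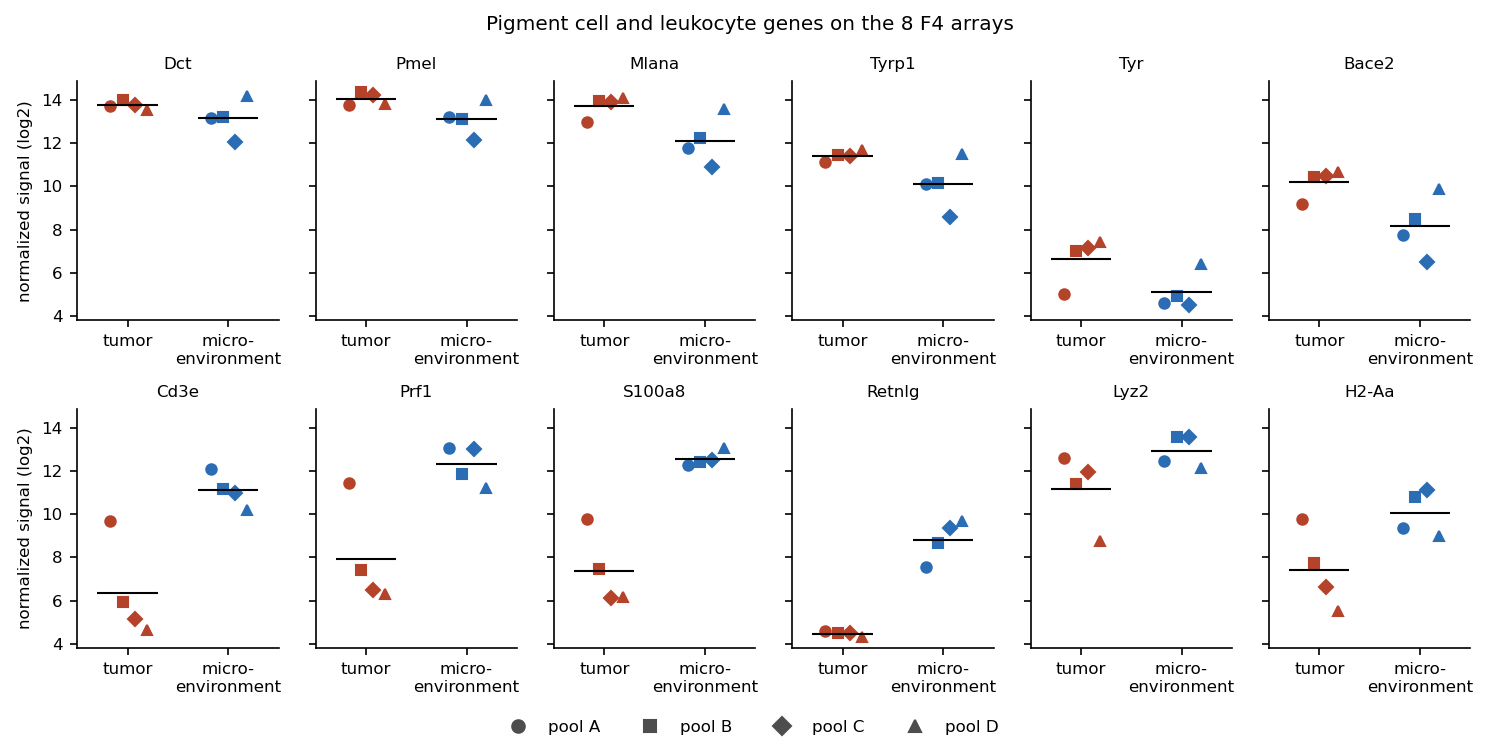
Log2 normalized signal (vertical) of 6 pigment cell genes (upper row) and 6 leukocyte genes (lower row) on the tumor (left, red) and microenvironment (right, blue) arrays of F4 pools A to D, with the mean of each fraction as a bar. Dct, Pmel, Mlana and Tyrp1 are bright in both fractions, while Cd3e, S100a8 and Retnlg do not overlap between them, and tumor array A is the highest tumor array for Cd3e, Prf1 and S100a8.

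Genes that regulate or mark the melanocyte and neural crest lineage were dimmer. Of 11 measured, 3 rose, Tfap2a, Pax3 and Mcam, 1 fell, Tfap2b, and the median was 0.68 (5 rose with the pool as a block, and 0 to 7 with single arrays left out). Mcam is an adhesion molecule rather than a regulator, stands in the pericyte list as well, and passed in 11 of 21 settings. Tfap2a, a transcription factor of neural crest and skin, had 8.01, 9.52, 9.81 and 9.62 in the tumor fraction, against 7.33, 7.14, 6.18 and 8.90 in the microenvironment fraction (adjusted p 0.0438). Pax3, which acts upstream of Mitf, was detected on 3 of 4 tumor arrays and on 0 microenvironment arrays (adjusted p 0.0357), with no lower limit of its fold above 1. Mitf itself had 5.16, 5.75, 5.55 and 5.69 in the tumor fraction, against 4.98, 4.56, 4.58 and 5.33 in the microenvironment fraction, close to background in both and detected on 0 microenvironment arrays (adjusted p 0.0515). Tfap2b, a relative of Tfap2a, ran the other way, with 5.94, 4.37, 4.35 and 4.44 in the tumor fraction, against 7.11, 6.04, 7.67 and 5.15 in the microenvironment fraction (adjusted p 0.0399). Under median scaling the median of this list fell below that of all genes, at 1.11 against 1.22.

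The 20 largest differences in favour of the tumor fraction came from genes of varied function. Eef1akmt1, a methyltransferase that modifies a translation elongation factor, had 6.53, 8.52, 9.05 and 8.96 in the tumor fraction, against 4.67, 5.27, 4.62 and 6.23 in the microenvironment fraction, where it was detected on 1 array. That is a difference of 3.07 ± 0.57 (SE; adjusted p 0.0133) and the largest of the genes tested. Capn6, a calpain family member without protease activity that binds microtubules, had 9.01, 9.35, 9.33 and 9.48 in the tumor fraction, against 5.71, 6.99, 5.23 and 8.28 in the microenvironment fraction (2.74 ± 0.59 SE, adjusted p 0.0179). For both genes no microenvironment array reached the lowest tumor array.

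Sh3tc2, known from a hereditary neuropathy as a Schwann cell protein, had 7.69, 9.12, 9.29 and 9.27 in the tumor fraction, against 6.91, 5.95, 5.33 and 7.0 in the microenvironment fraction (2.55 ± 0.44 SE, adjusted p 0.0111). Ptgds and Hpgds both encode enzymes that make prostaglandin D2. Ptgds was even across the tumor fraction, with 11.47, 11.45, 11.34 and 11.48, against 8.92, 9.31, 8.51 and 9.98 in the microenvironment fraction (2.25 ± 0.40 SE, adjusted p 0.0131). Hpgds had 6.71, 8.24, 8.31 and 8.30 in the tumor fraction, against 6.12, 6.27, 5.32 and 7.0 in the microenvironment fraction (adjusted p 0.0327). Mrap, an accessory protein of melanocortin receptors, had 7.49, 8.42, 8.11 and 8.55 in the tumor fraction, against 4.76, 6.07, 5.06 and 7.81 in the microenvironment fraction (adjusted p 0.0361), where array D alone reached into the tumor range.

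The other 15 of the 20 had differences between 2.06 (Lrp11 and Plpp2) and 2.48 (Cmtm5). They include the secreted phospholipase Pla2g2e (2.35), the desmosomal plakophilin Pkp2 (2.40), the lens filament protein Bfsp2 (2.19), the choline transporter-like Slc44a3 (2.16), the vitamin K-dependent carboxylase Ggcx (2.16), the surface antigen Cd109 (2.15), the quinone reductase Cryz (2.11), the cilium protein Tulp3 (2.10), the vesicle protein Syngr1 (2.10), the aldo-keto reductase Akr1b8 (2.10), the engulfment adaptor Gulp1 (2.09) and the acyl-CoA thioesterase Acot1 (2.07). In the plot by pool, the 40 largest differences keep their sign in all 4 pools, as the rule that chose them required.

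**Figure D3:**
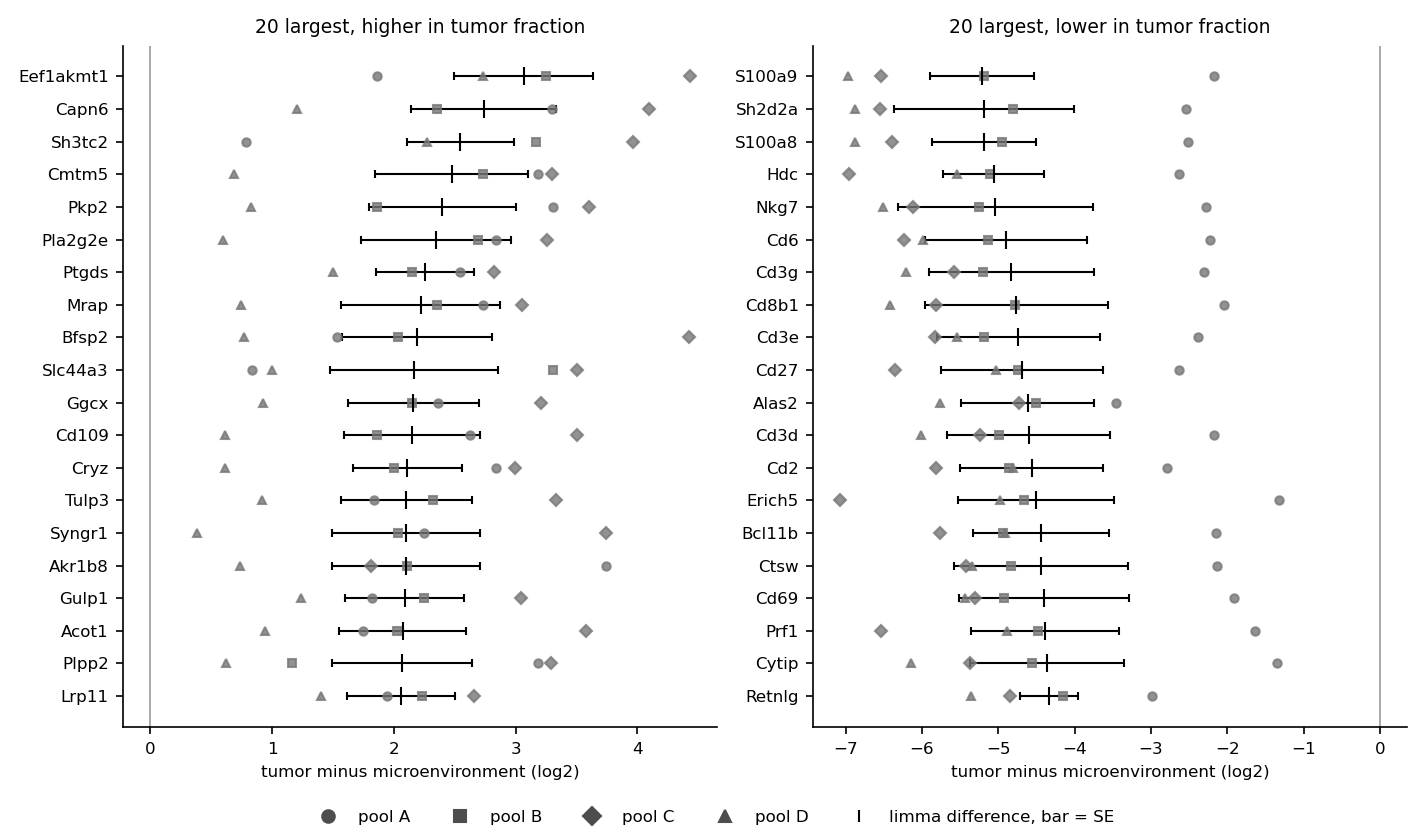
Tumor minus microenvironment difference (log2, horizontal) of the 20 genes with the largest difference in either direction, with grey symbols for pools A to D and a black tick and bar for the limma difference and its SE. For most genes lower in the tumor fraction pool A lies nearest to 0, and for most genes higher in it pool D does.

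Part of the energy metabolism genes were higher in the tumor fraction. All 44 measured genes of oxidative phosphorylation had a difference above 0, where 40.2% of all genes tested lay below 0. Their median was 0.66, and 14 rose while 0 fell. Leaving out single arrays gave between 0 and 34 of them. Atp5o, a subunit of the ATP synthase stalk, had 7.78, 7.64, 7.79 and 7.97 in the tumor fraction, against 5.93, 6.46, 5.20 and 7.61 in the microenvironment fraction (adjusted p 0.0399). Ndufb5 of complex I differed by 1.30 (adjusted p 0.0256) and Cyc1, the cytochrome c1 of complex III, by 1.19 (adjusted p 0.0407). Of 15 citrate cycle genes 6 rose and 0 fell, with a median of 0.81 (0 to 10 rose with single arrays left out), led by Dlat, a subunit of pyruvate dehydrogenase (1.48, adjusted p 0.0186), and Suclg2, a succinate-CoA ligase subunit (1.65, adjusted p 0.0258). Of 30 mitochondrial ribosome genes 9 rose and 0 fell, with a median of 0.59 (0 to 19 rose with single arrays left out), and Mrps2 differed by 1.25 (adjusted p 0.0310).

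Of 18 glycolysis genes 7 rose and 0 fell, with a median of 0.74 (0 to 10 rose with single arrays left out). Ldha, which turns pyruvate into lactate, had 13.53, 13.66, 13.90 and 13.97 in the tumor fraction, against 12.28, 12.72, 12.52 and 13.50 in the microenvironment fraction, with microenvironment array D just under tumor array A (1.01 ± 0.28 SE, adjusted p 0.0320). Aldoc, an aldolase, differed by 1.61 (adjusted p 0.0315) and Pfkm, a phosphofructokinase, by 1.26 (adjusted p 0.0328). Pgam2, the muscle phosphoglycerate mutase, had 9.17, 8.81, 8.47 and 8.86 in the tumor fraction, against 7.28, 6.82, 5.44 and 9.07 in the microenvironment fraction. It did not pass (1.67 ± 0.60 SE, adjusted p 0.0591), and passed with the pool as a block (adjusted p 0.0384). In the hypoxia list 4 of 14 rose (28.6%, against 13.3% of all genes) and 1 fell (7.14%, against 11.2%; 2 with the block). Car9, the carbonic anhydrase that acidifies hypoxic tumors, was higher by 1.68 (adjusted p 0.0467) and the oxygen sensor Egln1 by 1.49 (adjusted p 0.0436). Egln3, a related oxygen sensor, fell instead, with 8.02, 5.82, 6.29 and 5.81 in the tumor fraction, against 7.39, 8.29, 9.01 and 7.50 in the microenvironment fraction (adjusted p 0.0440).

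Some genes of cell division were also higher in the tumor fraction. In the DNA replication list 6 of 23 rose, 0 fell and the median was 0.85. Mcm2, a subunit of the replicative helicase, had 9.40, 9.53, 9.56 and 9.83 in the tumor fraction, against 7.91, 7.95, 6.89 and 9.22 in the microenvironment fraction, with no overlap (1.58 ± 0.43 SE, adjusted p 0.0295). Its partner Mcm6 differed by 1.20 (adjusted p 0.0287), the DNA ligase Lig1 by 1.39 (adjusted p 0.0206) and the clamp loader subunit Rfc4 by 1.12 (adjusted p 0.0474). Cdc6, which loads the helicase, passed (adjusted p 0.0376) but was detected on 3 tumor arrays and 0 microenvironment arrays, so that no lower limit of its fold above 1 can be given. In the cell cycle list all 16 differences were above 0, 4 passed and the median was 0.96. The mitotic checkpoint kinase Bub1b differed by 1.11 (adjusted p 0.0307) and the spindle motor Kif11 by 0.98 (adjusted p 0.0469, and 0.0623 with the pool as a block). With the block 12 replication genes rose, and leaving out single arrays gave between 0 and 14 of them and between 0 and 12 of the cell cycle genes.

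In lipid synthesis, protein turnover and protein folding some genes passed, and leaving out single arrays gave 0 to 12 risers among lipid genes, 0 to 12 among proteasome genes, 0 to 7 among chaperones and 0 to 7 among ribosome biogenesis genes. All 16 genes of fatty acid and cholesterol synthesis had a difference above 0, with a median of 1.08, and 3 rose (9 with the pool as a block), a share near the 13.3% of all genes. Dhcr7, an enzyme of the final steps of cholesterol synthesis, was detected on all 4 tumor arrays and on 0 microenvironment arrays, and was at least 1.34-fold higher (adjusted p 0.0134). "At least" marks a gene that no array of the dimmer fraction detected, which makes the fold a lower limit. Lss, the lanosterol synthase, differed by 1.31 (adjusted p 0.0202). Of 26 proteasome genes 7 rose and 0 fell, and the core subunit Psmb1 had 10.45, 11.12, 11.30 and 10.90 in the tumor fraction, against 8.17, 9.35, 10.26 and 8.02 in the microenvironment fraction (1.99 ± 0.44 SE, adjusted p 0.0186). Of 14 chaperones 4 rose (28.6%, against 13.3% of all genes) and 1 fell (7.14%, against 11.2%). The chaperonin subunit Cct6a differed by 0.91 (adjusted p 0.0450). The stress-inducible Hspa1a was 6.03-fold lower, with 9.87, 7.26, 7.59 and 6.09 in the tumor fraction, against 9.39, 10.64, 11.22 and 9.92 in the microenvironment fraction (adjusted p 0.0260), and pool A ran against the other 3 pools. Of 18 ribosome biogenesis genes 3 rose (6 with the block), also near the share of all genes, among them Pes1 (1.46, adjusted p 0.0474). The 28 cytosolic ribosome genes had a median of 0.05, and 1 rose (Rpl22, 0.80) and 1 fell (Rpl23, -0.80). The probes of Rpl23 disagreed: another probe gave 0.37.

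T cell genes had the lowest median of the 46 lists. All 17 measured T cell genes fell in the tumor fraction, with a median of -4.44, and for 16 of them every tumor array lay below every microenvironment array. Leaving out single arrays left between 2 and 17 calls. Cd3e, a signalling chain of the T cell receptor complex, had 9.69, 5.96, 5.14 and 4.66 in the tumor fraction, against 12.07, 11.15, 10.97 and 10.21 in the microenvironment fraction. Tumor array A was far above the other tumor arrays and still below every microenvironment array. The difference was -4.74 ± 1.07 (SE; adjusted p 0.0195). Its partner chains Cd3d and Cd3g differed by -4.60 (adjusted p 0.0204) and -4.83 (adjusted p 0.0191). Cd8b1, the beta chain of the coreceptor of killer T cells, had 11.43, 7.76, 6.66 and 5.41 in the tumor fraction, against 13.47, 12.54, 12.47 and 11.82 in the microenvironment fraction (adjusted p 0.0247).

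Further T cell genes among the 20 largest were the adhesion receptors Cd2 (-4.56) and Cd6 (-4.89), the costimulatory receptor Cd27 (-4.69), the signalling adaptor Sh2d2a (-5.19), the lineage factor Bcl11b (-4.44), the activation marker Cd69 (-4.40) and the adhesion regulator Cytip of leukocytes (-4.36). In bulk samples fewer cells of a type and less RNA in each cell cannot be told apart. Erich5, a gene of little known function, belonged to the same 20, with 12.41, 8.03, 6.89 and 7.28 in the tumor fraction, against 13.73, 12.70, 13.96 and 12.25 in the microenvironment fraction, so that tumor array A reached the level of microenvironment array D.

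Killing and effector genes followed. Of 10 cytotoxic granule genes 8 fell and 0 rose, with a median of -3.50 (0 to 8 with single arrays left out). Prf1, which encodes the pore-forming perforin, had 11.44, 7.40, 6.50 and 6.32 in the tumor fraction, against 13.07, 11.88, 13.03 and 11.20 in the microenvironment fraction (-4.38 ± 0.97 SE, adjusted p 0.0186). Tumor array A overlapped with microenvironment array D, and the other 3 tumor arrays lay far below. A second Prf1 probe, detected on 1 of the 8 arrays, gave -1.25. Nkg7, a granule membrane protein, differed by -5.04 (adjusted p 0.0248), the cathepsin Ctsw by -4.44 (adjusted p 0.0258), the granzyme Gzmk by -3.69 (adjusted p 0.0186) and the death ligand Fasl by -3.78 (adjusted p 0.0264). Ifng, the gene of interferon gamma, had 8.47, 5.29, 4.56 and 4.39 in the tumor fraction, against 10.99, 10.38, 10.02 and 8.31 in the microenvironment fraction (-4.24 ± 1.23 SE, adjusted p 0.0350).

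Of 8 NK cell genes 3 fell, with a median of -2.12, while 6 did so with the pool as a block and 1 to 5 with single arrays left out. Klrd1, a receptor chain of NK and killer T cells, had 8.39, 4.92, 4.88 and 4.56 in the tumor fraction, against 10.56, 9.85, 9.95 and 8.82 in the microenvironment fraction (adjusted p 0.0163). Klrk1, the activating receptor NKG2D, was detected on 0 tumor arrays and on 4 microenvironment arrays and was at least 2.84-fold lower (adjusted p 0.00693). Klrg1, a receptor of terminal effector cells, differed by -2.36 (adjusted p 0.0179).

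Of 7 regulatory T cell genes 6 fell, with a median of -2.77 (1 to 7 with single arrays left out). Foxp3, the factor that defines this lineage, had 6.27, 4.93, 4.97 and 4.74 in the tumor fraction, against 7.42, 8.27, 8.37 and 6.60 in the microenvironment fraction (-2.44 ± 0.45 SE, adjusted p 0.0133). Foxp3 was detected on 1 tumor array, A, and on all 4 microenvironment arrays. Tnfrsf18 and Tnfrsf4, costimulatory receptors that regulatory T cells carry at high level, differed by -3.97 (adjusted p 0.0131) and -3.77 (adjusted p 0.00670).

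All 7 measured B and plasma cell genes fell, with a median of -1.66, and leaving out single arrays left between 4 and 7 calls. On the tumor arrays, A included, they lay near background, and only Cd79b was detected there, on array A. They were dim in the microenvironment fraction too, with a mean level of 6.47. There 2 of the 7 were detected on all 4 arrays, and Cd79a on 2 arrays. Fcrla, an Fc receptor-like protein inside B cells, had 4.82, 4.63, 4.65 and 4.30 in the tumor fraction, against 6.87, 7.30, 7.34 and 6.63 in the microenvironment fraction. It was at least 3.50-fold lower (adjusted p 0.000572). Fcmr, the receptor for IgM, was at least 3.28-fold lower (adjusted p 0.0173), and Mzb1, a chaperone of antibody secretion, at least 2.17-fold lower (adjusted p 0.00521). Of the B cell receptor subunits, Cd79a was at least 1.35-fold lower (adjusted p 0.0180) and Cd79b differed by -1.46 (adjusted p 0.0283).

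The largest difference on the lower side belonged to a neutrophil gene, S100a9. All 11 neutrophil genes measured fell in the tumor fraction, with a median of -3.15, and leaving out single arrays left between 4 and 11 calls. S100a9, a subunit of calprotectin, had 8.48, 5.60, 5.12 and 4.75 in the tumor fraction, against 10.65, 10.79, 11.66 and 11.71 in the microenvironment fraction. Its partner S100a8 had 9.76, 7.48, 6.11 and 6.17 in the tumor fraction, against 12.28, 12.43, 12.51 and 13.05 in the microenvironment fraction. For both genes tumor array A was the highest of its fraction and lay over 2 log2 units below the lowest microenvironment array. S100a9 was 37.1-fold lower (-5.22 ± 0.68 SE, adjusted p 0.00406) and S100a8 36.4-fold lower (-5.19 ± 0.68 SE, adjusted p 0.00406).

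Retnlg, a secreted protein of neutrophils, did not overlap between the fractions, with 4.58, 4.49, 4.53 and 4.34 in the tumor fraction, against 7.57, 8.65, 9.38 and 9.69 in the microenvironment fraction. It was detected on 0 tumor arrays, array A included, and was at least 12.1-fold lower (adjusted p 0.000529). The granule protein Lcn2 had 5.60, 5.0, 5.31 and 4.38 in the tumor fraction, against 7.25, 8.21, 9.44 and 10.13 in the microenvironment fraction (adjusted p 0.00543). Ltf, the lactoferrin of secondary granules, varied most within the microenvironment fraction, at 4.96, 7.03, 8.15 and 11.25 there, against 4.71, 4.59, 4.38 and 5.11 in the tumor fraction, where no array detected it (at least 6.15-fold lower, adjusted p 0.0409). The granulocyte growth factor receptor Csf3r differed by -2.15 (adjusted p 0.0142), the decoy receptor Il1r2 by -3.50 (adjusted p 0.0161) and the gelatinase Mmp9 by -2.01 (adjusted p 0.0206). Hdc, which makes histamine and is known from mast cells, basophils and immature myeloid cells, had 8.67, 6.61, 5.66 and 5.22 in the tumor fraction, against 11.31, 11.71, 12.61 and 10.76 in the microenvironment fraction (-5.06 ± 0.66 SE, adjusted p 0.00406). In the mast cell and basophil list of 4 measured genes Hdc was the 1 that fell. In the same list 1 gene rose, Hpgds, by 1.71.

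Among markers common to blood cells, 13 of 16 pan-leukocyte genes fell and 0 rose, with a median of -2.34. Of 14 Fc receptor and adaptor genes 4 fell (28.6%, against 11.2% of all genes). Of 16 toll-like receptor and inflammasome genes 6 fell (37.5%) and 1 rose. With single arrays left out, 0 to 14 pan-leukocyte, 0 to 11 Fc receptor, 0 to 8 toll-like receptor and 0 to 5 dendritic cell genes fell. Of 9 dendritic cell genes 2 fell (22.2%) and 0 rose. Their median was -1.39, with pool medians of 0.76 in A, -2.04 in B, -2.69 in C and -1.42 in D.

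Macrophage genes differed in direction between the pools. Of 18 measured 2 fell, Ly6c1 and Cd14, a share of 11.1% that lies near the 11.2% of all genes. In this list 0 rose and the median was -1.10. By pool the median was 1.25 in pool A, -2.08 in B, -1.82 in C and -2.58 in D. Lyz2, the lysozyme of macrophages and neutrophils, had 12.60, 11.41, 11.94 and 8.77 in the tumor fraction, against 12.45, 13.59, 13.59 and 12.15 in the microenvironment fraction (adjusted p 0.0807, and 0.0383 with the pool as a block). Adgre1, the macrophage marker F4/80, had 7.65, 5.72, 6.13 and 4.66 in the tumor fraction, against 5.22, 7.72, 8.12 and 6.72 in the microenvironment fraction (adjusted p 0.307). C1qa, a complement subunit made by macrophages, had 9.89, 8.08, 8.47 and 5.83 in the tumor fraction, against 7.56, 9.49, 9.72 and 8.45 in the microenvironment fraction (adjusted p 0.487). In pool A all 3 genes were higher in the tumor fraction and in the other pools lower. Cd14, the coreceptor for bacterial lipopolysaccharide, had 11.15, 8.59, 8.82 and 6.28 in the tumor fraction, against 11.02, 12.16, 12.54 and 10.80 in the microenvironment fraction (adjusted p 0.0415). Without tumor array A and microenvironment array D 10 of the 18 fell, with the pool as a block 4, and with single arrays left out 0 to 9. In the fit without both arrays 1571 of all 7894 genes fell.

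**Figure D4:**
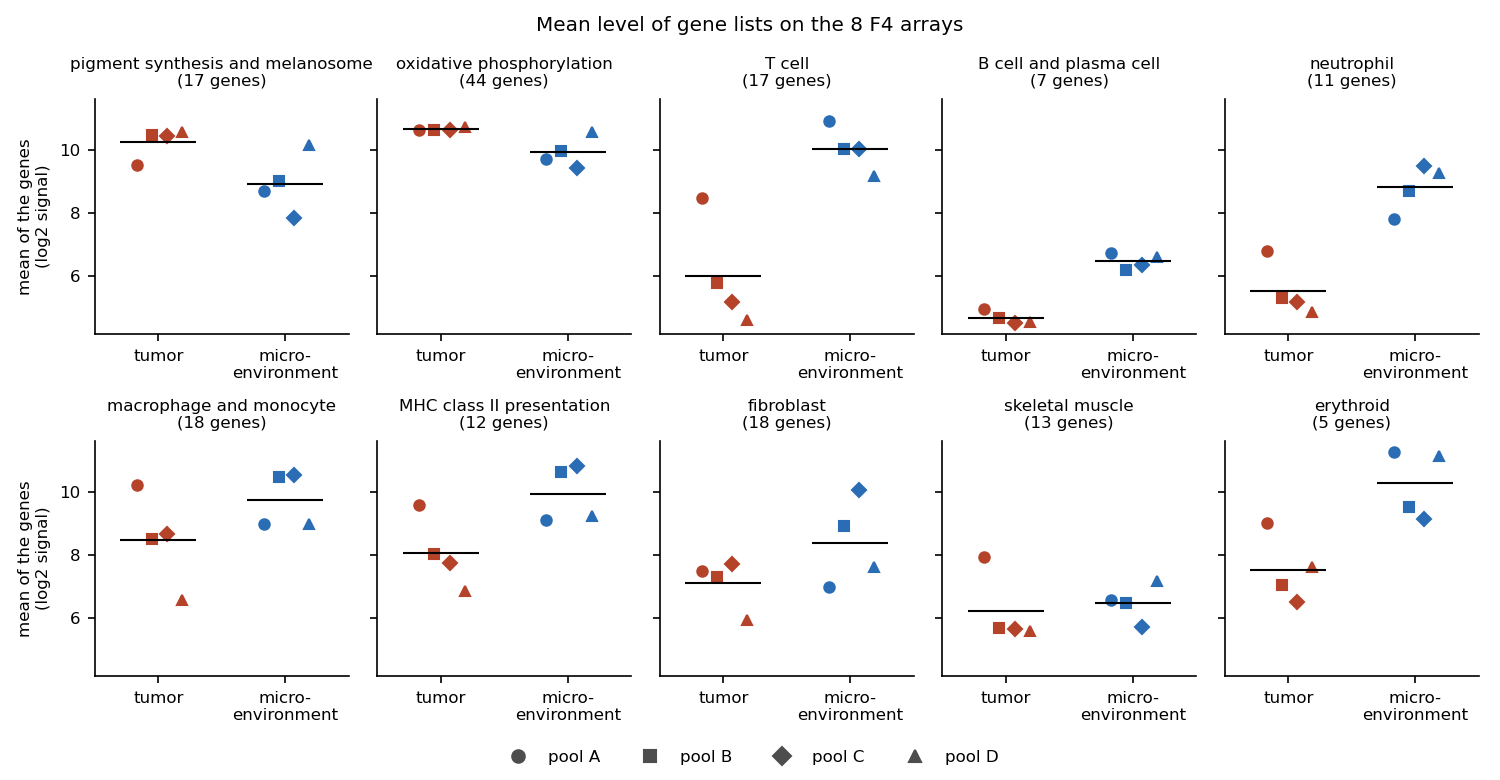
Mean log2 signal of the measured genes of 10 lists (vertical) on the tumor (left, red) and microenvironment (right, blue) arrays of pools A to D, with the mean over each fraction as a bar. Tumor array A is the highest tumor array for T cell, neutrophil, macrophage, MHC class II and skeletal muscle genes, and microenvironment arrays A and D are the lower ones for macrophage and MHC class II genes.

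The MHC class II genes, which present antigen on macrophages, dendritic and B cells, also differed in direction between the pools. Of 12 measured 4 fell and 0 rose (1 to 8 fell with single arrays left out), with a median of -2.11, and the pool medians were 0.61 in A, -2.92 in B, -3.13 in C and -2.31 in D. H2-Ab1 had 12.98, 10.69, 10.30 and 8.30 in the tumor fraction, against 12.35, 13.73, 13.97 and 12.23 in the microenvironment fraction (adjusted p 0.104). Cd74, the invariant chain, had 13.18, 11.43, 11.02 and 9.45 in the tumor fraction, against 12.58, 13.86, 14.19 and 12.67 in the microenvironment fraction (adjusted p 0.146). Ciita, the master regulator of these genes, had 7.26, 5.24, 4.95 and 4.58 in the tumor fraction, against 7.16, 8.35, 9.11 and 6.03 in the microenvironment fraction (-2.16 ± 0.72 SE, adjusted p 0.0498). In pools B, C and D the tumor fraction of all 3 genes lay below its matched microenvironment fraction.

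In the MHC class I pathway 4 of 18 genes fell (22.2%, against 11.2% of all genes) and 0 rose. The median of -1.03 lay at 0.22 under median scaling, where all genes had 1.22. With the pool as a block 12 fell and 1 rose, and with single arrays left out 0 to 8 fell. H2-K1, a classical class I heavy chain, had 6.95, 5.67, 5.79 and 5.05 in the tumor fraction, against 8.27, 7.98, 8.20 and 7.01 in the microenvironment fraction (-2.0 ± 0.56 SE, adjusted p 0.0321). The groups did not overlap. H2-D1, the other classical heavy chain here, had 6.26, 5.98, 5.46 and 5.41 in the tumor fraction, against 6.85, 6.97, 6.89 and 5.97 in the microenvironment fraction (-0.89 ± 0.51 SE, adjusted p 0.18, and 0.0353 with the pool as a block). Because class I genes are polymorphic and nearly alike, their probes may share targets. The peptide transporter subunit Tap2 differed by -1.71 (adjusted p 0.0347), the loading factor Tapbp by -1.68 (adjusted p 0.0180) and the nonclassical H2-Q7 by -2.70 (adjusted p 0.0323). Over 21 alternative settings Tap2 passed in 13 and was -0.27 at its weakest. Tapbp passed in 16 and was -0.36 at its weakest. B2m, the light chain shared by all class I molecules, was nearly level, with 13.71, 13.83, 13.48 and 13.63 in the tumor fraction, against 13.90, 14.07, 14.11 and 13.79 in the microenvironment fraction (-0.30 ± 0.19 SE, adjusted p 0.218; 0.50 under median scaling).

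Ifngr1, the ligand-binding chain of the interferon gamma receptor, had 8.71, 6.85, 6.76 and 6.39 in the tumor fraction, against 10.73, 10.02, 10.55 and 9.45 in the microenvironment fraction (-3.01 ± 0.60 SE, adjusted p 0.0157). Jak2 was even within the tumor fraction, at 7.55, 7.34, 7.26 and 7.24, against 8.91, 9.20, 9.68 and 8.70 in the microenvironment fraction (-1.77 ± 0.27 SE, adjusted p 0.00670). Neither gene overlapped between the fractions. For Ifngr2 the brightest probe differed by -3.12 (adjusted p 0.0184), while its other 2 probes gave 0.44 and -0.17, so that its probes disagree. Cd274, which encodes PD-L1, had 10.13, 10.01, 9.63 and 9.29 in the tumor fraction, against 10.84, 11.47, 12.23 and 10.47 in the microenvironment fraction, 2.80-fold lower (-1.48 ± 0.44 SE, adjusted p 0.0364). Cd274 RNA was thus detected on all 8 arrays, above 9 in log2 signal on each, and the PD-L1 protein was not measured. Over 21 alternative settings the difference of Cd274 ran from -2.03 to -0.10, and it passed in 14. For Jak2 the range was -2.14 to -0.35, and it passed in 20. Of 14 genes of the interferon gamma response 5 fell (1 to 6 with single arrays left out), with a median of -1.19 that lay at 0.04 under median scaling. Of 18 of the type I response only Rsad2, an antiviral enzyme, fell (-0.81, adjusted p 0.0455), a share of 5.56% against 11.2% of all genes. Rsad2 did not pass with the pool as a block (adjusted p 0.0535) and lay at 0.57 under median scaling.

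Among 22 checkpoint and costimulation genes 11 fell and 1 rose (2 rose with the block), with a median of -1.94 (2 to 16 fell with single arrays left out). Ctla4, the T cell brake that CI antibodies target, had 7.09, 4.90, 4.55 and 4.76 in the tumor fraction, against 9.56, 9.48, 9.50 and 8.29 in the microenvironment fraction (-3.88 ± 0.72 SE, adjusted p 0.0133). Ctla4 was detected on tumor array A alone of its fraction. The costimulatory receptor Icos differed by -3.45 (adjusted p 0.00918) and Cd28 by -3.46 (adjusted p 0.0140). Their ligand genes on antigen-presenting cells, Cd80 and Cd86, differed by -2.35 (adjusted p 0.0178) and -2.58 (adjusted p 0.0400), and Cd86 was higher in the tumor fraction in pool A, at 8.75 against 8.35. The exception was Nectin2, an adhesion molecule and ligand of inhibitory and activating lymphocyte receptors, with 6.30, 7.79, 7.63 and 7.85 in the tumor fraction, against 5.36, 5.91, 5.19 and 7.16 in the microenvironment fraction (1.49 ± 0.46 SE, adjusted p 0.0407).

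Some chemokine, cytokine and receptor genes fell in the tumor fraction. Of 22 chemokines 5 fell (22.7%, against 11.2% of all genes) and 0 rose. Of 8 chemokine receptors 4 fell and 0 rose, and of 18 inflammatory cytokines and receptors 10 fell (55.6%) and 0 rose. With single arrays left out, 0 to 9, 0 to 6 and 0 to 13 of these lists fell. In pool A the median was 0.77 for chemokines and 0.06 for cytokines, while pools B, C and D had -2.06, -2.45 and -2.44 for chemokines and -2.92, -3.53 and -2.92 for cytokines. Ccl5, which draws T cells, had 11.27, 7.52, 6.90 and 6.11 in the tumor fraction, against 13.10, 11.86, 12.16 and 11.54 in the microenvironment fraction (-4.21 ± 0.99 SE, adjusted p 0.0208). Il1b, an early inflammatory cytokine, had 12.10, 9.32, 8.95 and 6.49 in the tumor fraction, against 12.70, 13.60, 14.05 and 11.85 in the microenvironment fraction (-3.83 ± 1.11 SE, adjusted p 0.0347). In both, tumor array D was the lowest and A the highest tumor array. Xcl1, which draws cross-presenting dendritic cells, differed by -3.92 (adjusted p 0.0249), the neutrophil attractant Cxcl2 by -3.29 (adjusted p 0.0311), Ccl3 by -3.19 (adjusted p 0.0247), Ccl4 by -2.28 (adjusted p 0.0449) and the cytokine Osm by -3.25 (adjusted p 0.0347). The receptors Cxcr3 and Cxcr4 differed by -2.77 (adjusted p 0.0186) and -2.51 (adjusted p 0.0131).

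Of 19 immediate early genes, which respond within minutes to stimulation, 7 fell in the tumor fraction and 0 rose, with a median of -1.22. With the pool as a block 12 fell, and with single arrays left out 0 to 11. Under median scaling the median of this list lay at -0.03, where all genes had 1.22. Egr1 had 11.22, 9.99, 10.19 and 9.49 in the tumor fraction, against 11.77, 12.60, 13.23 and 11.67 in the microenvironment fraction (adjusted p 0.0426). Junb differed by -1.79 (adjusted p 0.0224), Nr4a2 by -2.54 (adjusted p 0.0173) and the phosphatase Dusp1 by -1.66 (adjusted p 0.0449).

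Stromal and blood genes completed the comparison. Of 18 fibroblast genes 2 fell, Col1a2 and Thy1, a share of 11.1% against 11.2% of all genes, and the median was -1.23. With the pool as a block 8 fell, and with single arrays left out 0 to 4. Dcn, the collagen-binding decorin, had 10.49, 9.65, 10.09 and 6.15 in the tumor fraction, against 10.32, 12.86, 13.45 and 10.91 in the microenvironment fraction (adjusted p 0.0791, and 0.0321 with the block). Col1a1 had 6.14, 6.79, 8.22 and 4.94 in the tumor fraction, against 4.78, 8.46, 10.31 and 7.41 in the microenvironment fraction (adjusted p 0.40). In pool A both were higher in the tumor fraction. Thy1, shared by fibroblasts and T cells, differed by -3.69 (adjusted p 0.0362).

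Of 14 endothelial genes 2 rose, a share of 14.3% against 13.3% of all genes, and 0 fell (2 fell with the pool as a block). The median was -0.79 and lay at 0.09 under median scaling. The risers were Eng, a coreceptor for TGF-beta, with 7.89, 7.99, 7.89 and 8.13 in the tumor fraction, against 6.33, 6.76, 7.10 and 7.66 in the microenvironment fraction (adjusted p 0.0248), and Prox1, the lymphatic factor, which was detected on 3 tumor arrays and 0 microenvironment arrays (adjusted p 0.0204), with no lower limit of its fold above 1. Pecam1, a junction protein of vessels, had 6.62, 5.26, 4.77 and 4.50 in the tumor fraction, against 6.59, 7.17, 6.91 and 5.58 in the microenvironment fraction (adjusted p 0.0768, and 0.0367 with the pool as a block). Of 13 skeletal muscle genes 1 rose (2 with the block), a share of 7.69% against 13.3% of all genes. The riser was the muscle creatine kinase Ckm (at least 1.08-fold, adjusted p 0.0142). The list stood at 7.94 on tumor array A, against 5.57 to 5.67 on the other tumor arrays and 5.72 to 7.17 on the microenvironment arrays.

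Of 5 red cell genes 3 fell, with a median of -3.49 (0 to 4 with single arrays left out). Alas2, the first enzyme of haem synthesis in red cell precursors, had 9.48, 6.09, 5.44 and 6.97 in the tumor fraction, against 12.93, 10.60, 10.17 and 12.74 in the microenvironment fraction (-4.62 ± 0.87 SE, adjusted p 0.0136). Microenvironment arrays A and D were the high ones. The membrane anion exchanger Slc4a1 showed the same order, with 6.49, 4.70, 4.45 and 5.24 in the tumor fraction, against 10.27, 7.44, 7.03 and 10.12 in the microenvironment fraction (adjusted p 0.0173). Hba-a1, an alpha globin, was bright throughout, with 14.47, 13.21, 12.31 and 14.25 in the tumor fraction, against 14.71, 14.79, 14.79 and 14.71 in the microenvironment fraction (adjusted p 0.0554, and 0.0477 with the pool as a block). Rpl23 also took the values 14.71 and 14.79 on microenvironment arrays. Whether the Hba-a1 signal was at a ceiling there, which would understate its difference, was not tested.

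The 4 pools gave differences of unequal size. The tumor and microenvironment arrays of a pool correlated at 0.899 in A, 0.835 in B, 0.738 in C and 0.888 in D over the genes tested. In pool C 46.0% of genes differed beyond 2-fold, against 31.2% in B, 26.9% in A and 15.0% in D. Pool D stood out by its small differences among genes of the tumor side: the median of the pigment list was 0.54 there, against 2.64 in C, and that of oxidative phosphorylation 0.15, against 1.11 in C. Its T cell median of -4.91 lay among those of B (-4.75) and C (-5.23). Pool A was the reverse for the microenvironment side, with a T cell median of -2.34, a neutrophil median of -0.42 and a macrophage median above 0. On tumor array A the T cell list stood at 8.47, against 4.61 to 5.77 on the other tumor arrays, while its pigment list stood at 9.51, against 10.44 to 10.57. On microenvironment array D the pigment list stood at 10.15, against 7.85 to 9.01 on the others. The share of cells from the other fraction in each of these arrays was not measured.

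**Figure D5:**
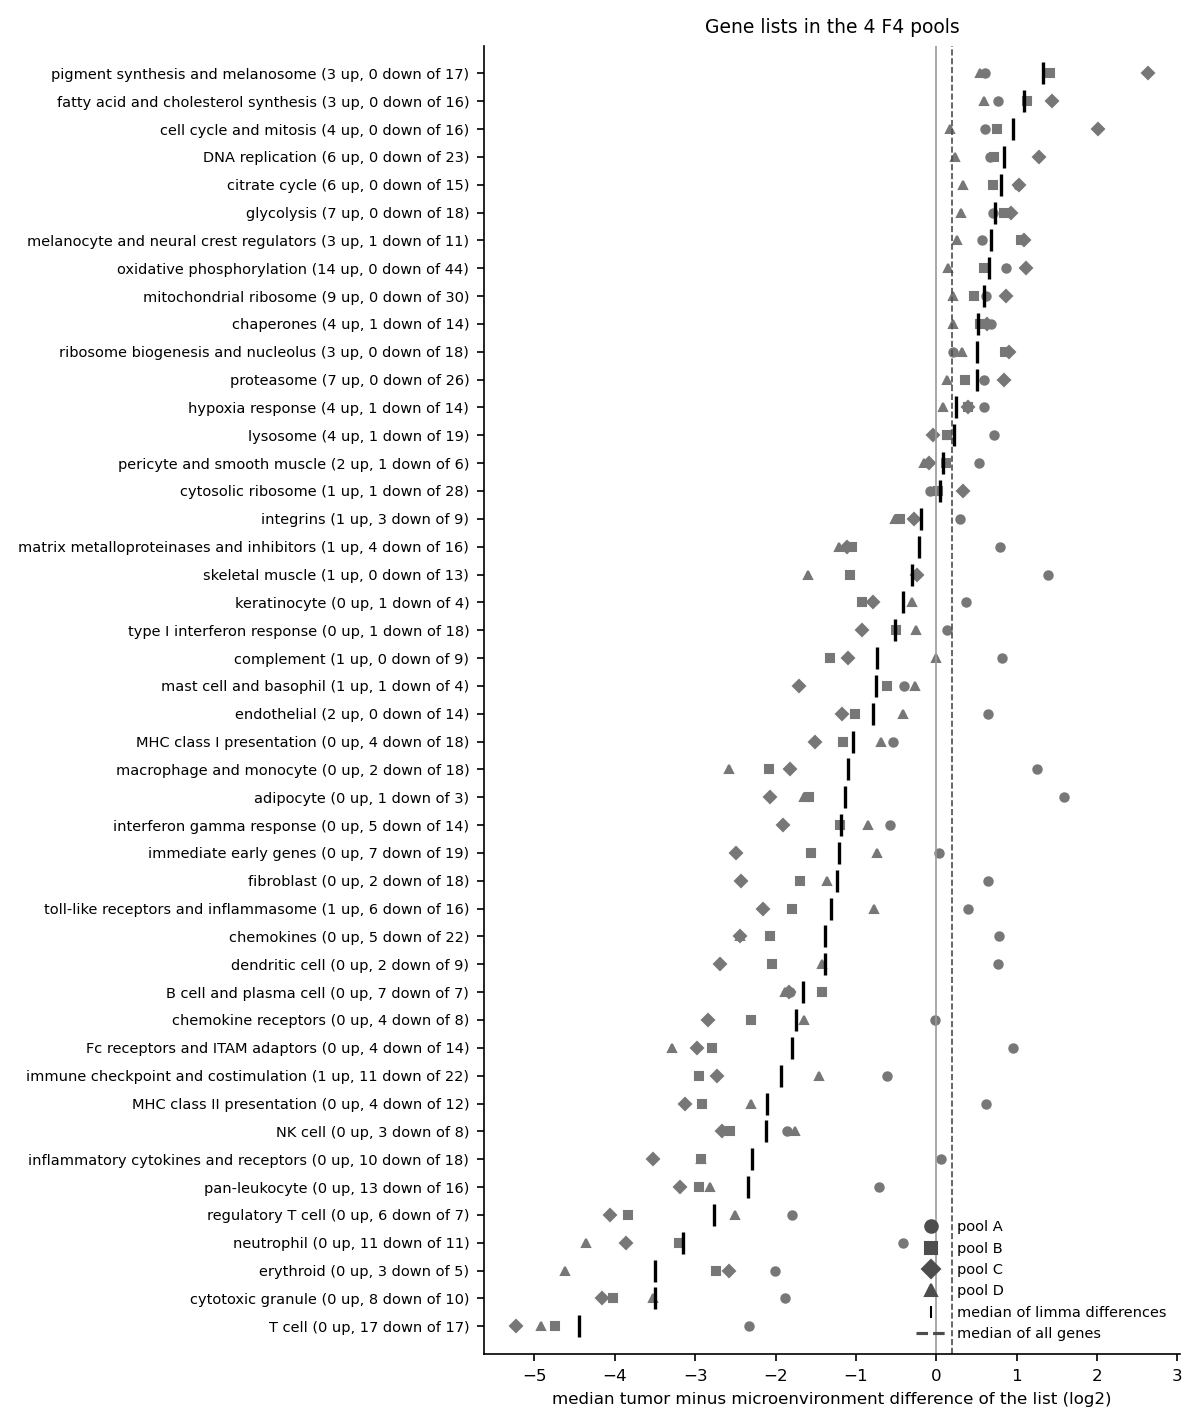
Median tumor minus microenvironment difference (log2, horizontal) of 46 gene lists in pools A to D (grey symbols) and in limma (black tick), ordered by the limma median, with the counts of genes that passed beside each name and the median of all genes as a dashed line. T cell, cytotoxic, regulatory T cell and B cell lists are below 0 in all 4 pools, while macrophage, MHC class II and fibroblast lists are above 0 in pool A and below 0 in the other 3. Positions depend on scaling: under median scaling all genes had a median of 1.22. The MHC class I, endothelial, both interferon, complement, metalloproteinase, integrin and mast cell lists then lay above 0.

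By detection alone, 159 genes were found on all 4 tumor arrays and on no microenvironment array, of which 117 passed the test. Another 24 genes were found on all 4 microenvironment arrays and on no tumor array, of which 23 passed. These counts cannot be set against each other, since the lowest detected log2 signal was 5.04 to 5.44 on the tumor arrays and 5.30 to 6.39 on the microenvironment arrays. Besides Retnlg, Fcrla and Klrk1 the second group held Gata3 and Slamf1, genes of T helper cells, and Ikzf1, a lymphoid transcription factor, which were at least 2.78-fold, 2.70-fold and 2.75-fold lower and were picked after their values were seen.

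The fraction difference was compared with that of F0 tumors through the interaction term of the same fit. No gene passed: 0 of 7894 had an adjusted p below 0.05 in limma, 97 (1.23%) had an unadjusted p below 0.05, and each alternative gave 0 as well. With 2 F0 arrays for each fraction this does not show that the lines act alike. The difference of S100a8 was -5.19 in F4 and -7.14 in F0, that of Cd3e -4.74 in F4 and -4.79 in F0, and that of Mlana 1.62 in F4 and 1.34 in F0. Pgam2 differed by 1.67 in F4 and by 0.16 in F0, and Mlph by 1.80 in F4 and 0.15 in F0, each without a passing interaction. Rhox5, an X-linked homeobox gene, was close to background in F4, with 7.23, 4.73, 4.88 and 4.58 in the tumor fraction, against 5.12, 4.65, 4.45 and 4.40 in the microenvironment fraction, and only tumor array A detected it.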

How the data were processed

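RNA of sorted tdTomato-positive and tdTomato-negative cells was amplified and biotinylated from 300 ng and hybridised to single-colour Illumina mouse bead arrays. The deposited table held, per the file headers, a linear intensity without normalization and a detection p-value for each of 25697 probes, read with GenomeStudio per the submitters' processing notes (version not given in the sources used here). A second deposited table held intensity values processed by the authors in a way not given, and served as an alternative. In R 4.3.3 with limma 3.58.1, neqc corrected background, added an offset of 16 and quantile-normalized all 12 arrays, giving log2 values. A probe was kept if 2 or more arrays detected it (detection p below 0.01), which left 11224. Quantile normalization gives both fractions one signal distribution, although fewer probes were detected in the microenvironment.

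Of the probes 12096 had 1 gene symbol, 0 several and 13601 none, and 12090 matched RefSeq (GRCm38.p6). The brightest probe stood for a gene. The linear model had a mean per group over 12 arrays (residual degrees of freedom 8), with Benjamini-Hochberg adjustment and a threshold of 0.05. Every adjusted p in the text is limma's. Steps were tested on simulated data. The number of arrays limits precision: the 95% interval of a difference had a median half-width of 0.62.

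The rule for named genes took the 20 largest passing differences each way, detected throughout the brighter fraction and of one sign in all pools. It added up to 6 passing members of each list with the smallest p, up to 2 against its median, and 25 preset genes. Sox10, Ptprc, Csf1r, Pdcd1, Flt3 and Mki67 among these were not analysed here, for want of a named probe. The rule gave 221 genes, and the text names only a part of them. Another 16 genes were chosen after their values were seen, as were Gata3, Slamf1, Ikzf1 and the genes outside the lists in the closing section. The comparison and the gene lists were chosen with earlier results of these data known. A fold marked "at least" compares the mean of the brighter fraction with the mean, over the dimmer arrays, of whichever is higher on each array: the lowest detected signal or the gene's own. The labels place both fractions of a letter in one pool of tumors, so letters pair the arrays. The deviations of matched arrays from their group means correlated at 0.11 (A), 0.11 (B), -0.07 (C) and 0.56 (D). Unmatched arrays ran from -0.59 (tumor A with microenvironment D) to 0.41 (tumor A with microenvironment C). Tumor arrays B and C correlated with microenvironment array D at 0.32 and 0.33, above their matched values. The pairing, and with it the differences by pool and the block, thus rests on the labels. Alternatives changed normalization, background, filter, probe choice, samples, block, weights and source table.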

Additional observations from a re-analysis of the deposited data

Results flagged for a closer look

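A value is given here when 1 array of a fraction lay so far from the other 3 that its gap to the nearest of them passed Dixon's critical share of the whole range at the 95% level. Chance alone gives about 1 in 20 groups such a gap. Over all genes tested, tumor array A stood apart in this way for 992 genes (12.6%), microenvironment array A for 173, microenvironment array D for 150, and each other array for 25 to 55.

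Among gene lists, tumor array A was low for the pigment genes at 9.51 (others 10.44 to 10.57) and for cell cycle genes at 8.25 (others 8.96 to 9.09). Tumor array A was high for NK cell genes at 6.06 (others 4.38 to 4.63), skeletal muscle genes at 7.94 (others 5.57 to 5.67) and keratinocyte genes at 6.46 (others 5.50 to 5.57). Tumor array D was low for complement genes at 7.45 (others 8.77 to 8.96).

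Genes of the tumor side that were low on tumor array A were Bace2 (9.20), Cyc1 (10.98), Ggcx (6.99), Hpgds (6.71), Mrps2 (6.05), Nectin2 (6.30), Rab38 (9.08), Sh3tc2 (7.69), Tfap2a (8.01) and Tyr (5.03). Genes that were high on tumor array A were Cdh1 (6.51), Ctla4 (7.09), Fasl (7.77), Fcmr (5.12), Foxp3 (6.27), Gzmk (7.54), the brightest Ifngr2 probe (10.64), Klrd1 (8.39), Mmp9 (6.97), Rhox5 (7.23) and Tfap2b (5.94). Tumor array C was low for Cmtm5 (7.77) and high for Col1a2 (5.25). Microenvironment array D was low for Ctla4 (8.29), H2-D1 (5.97) and Ly6c1 (10.66) and high for Dlat (6.23) and Mylk (8.62). Microenvironment array A was low for Apoe (10.48).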

How the results depend on the processing

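As reported, 1053 genes were higher and 886 lower in the tumor fraction. The counts were 5351 and 399 with median scaling, 3671 and 2228 with array weights, 1834 higher with the pool as a random replicate block, 1605 higher with F4 pools B and C and the F0 arrays alone, and 2527 and 1571 without tumor array A and microenvironment array D. With the pool as a fixed replicate block they were 1483 and 1133. Leaving out single arrays gave 31 to 1960 higher and 51 to 1310 lower. No background correction, both other detection filters, the mean of probes, F4 arrays alone (fitted, or normalized and fitted) and the authors' table kept each count within 1.5 times. The block changed no call of a gene named in the text other than those given there and Gpr143 (0.0183), H2-Aa (0.0343) and Rab38 (0.0265), which then passed. Signs turned under median scaling for B2m (0.50), C1qa (0.57), H2-D1 (0.087) and Rsad2 (0.57), without tumor array D for C1qa (0.0083; without another single array -1.35 at the lowest), and without tumor array A and microenvironment array D for Rhox5 (-0.010). For these changes the cause was not tested. Of the 1939 calls all that an alternative tested kept their sign, except under median scaling (1737) and the mean of probes (1938). The filter for detection on all 4 arrays of an F4 group tested only 1607 of them. Signal near background limits the folds of genes that one fraction did not show.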

Other observations

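Some genes outside the lists passed in every fit that left out 1 array, and their values are given without explanation, having been picked after they were seen. On the microenvironment side these included Pglyrp1, a bactericidal granule protein, with a difference of -3.17 (adjusted p 0.00919), and the cytokine gene Il4, which no tumor array detected and which was at least 2.01-fold lower (adjusted p 0.00682). On the tumor side they included Prodh, which breaks down proline, with 1.85 (adjusted p 0.00612). Ahcy, which clears S-adenosylhomocysteine, was at least 1.39-fold higher (adjusted p 0.00693) and Col4a5, a basement membrane collagen, at least 1.06-fold higher (adjusted p 0.00563), and neither was detected on a microenvironment array.

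Cell type lists with few measured members gave mixed counts. Of 4 keratinocyte genes 1 fell, Cdh1, the epithelial cadherin (-1.47, adjusted p 0.0248). Of 6 pericyte and smooth muscle genes 2 rose and 1 fell. The risers were the myosin kinase Mylk at 0.98 (adjusted p 0.0441) and Mcam, already counted in the melanocyte and neural crest list. Apoe, a lipid carrier of macrophages and melanoma cells, had 11.83, 11.61, 11.75 and 11.51 in the tumor fraction, against 10.48, 11.18, 11.15 and 11.25 in the microenvironment fraction. Its difference of 0.66 ± 0.28 (SE) did not pass (adjusted p 0.0932), although the groups did not overlap. In the complement list Cd59a, an inhibitor of the membrane attack complex, rose by 1.41 (adjusted p 0.0286) and 0 of 9 genes fell.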
